A study of Danio rerio with 2 samples.

Results

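The collagen genes were followed in RNA of GFP-positive cells sorted from zebrafish larvae mutant for rraga and from wild type larvae, both of the TL (Tupfel long fin) strain at 5 days post fertilization. rraga encodes RagA, a GTPase that acts with Ragulator at the lysosome in amino acid sensing, and the mutant allele is not named in the labels. Cells of both genotypes carried GFP under the promoter of Cldnk, a claudin gene used to mark oligodendrocytes. A sorted cell is therefore one in which that promoter was active or had been, which need not be an oligodendrocyte. Whether Schwann cells were in the sort was not tested. There was 1 record per genotype, and each merged 2 independent biological replicates per the labels. How many larvae were pooled is not given. The values are the authors' own comparison, with 1 fold and 1 p for each gene. It holds no value per replicate or per genotype, so the spread between replicates cannot be shown. The log2 fold of rraga itself was 0.44 (unadjusted p = 0.477), with a level of 33.1, per the authors' deposited table, and whether the mutant allele is transcribed is not stated, so this does not check the labels.

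A gene was taken as a collagen where its name in the table begins with col, a number, the letter a and a number. The pattern found 57 of 34326 rows. Of these, 54 had a level above 0 and are described here, and col6a3_2, col21a1 and col24a1 were listed at 0. The weakest gene kept was col27a1a, at a level of 0.00452. The 54 hold 15 fibrillar collagens, 6 of basement membranes, 5 short-chain network collagens of types VIII and X, 11 fibril-associated collagens (FACIT), 4 beaded filament chains of type VI, 2 anchoring fibril chains of type VII, 2 transmembrane chains of type XVII, 3 multiplexins of types XV and XVIII, and 4 chains of types XXVI and XXVIII. The other 2, col4a3bpa and col4a3bpb, encode the ceramide transporter CERT, which carries ceramide between membranes and is named for binding a type IV collagen, so 52 of the 54 are collagens.

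Collagens are proteins of the extracellular matrix in which 3 chains, the same or different, wind into a triple helix. Fibrillar collagens make the cables of skin, bone, tendon and cartilage, type IV makes the sheet of basement membranes, and short-chain collagens make lattices. The parenchyma of the brain and spinal cord holds little fibrillar collagen. There, collagens are known mainly from basement membranes of vessels and of the surface, and from meninges and their fibroblasts.

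Levels below are the higher of the genotype means in the authors' deposited table. The unit is not named, but it is per length. Among 336 genes that share one fold (-2.43 on the log2 scale) and one p (0.435), 19 genes for 5S ribosomal RNA of 116 to 130 bases had levels whose product with the gene's length was 16.6 in every case. Gene length therefore does not hinder a comparison of levels between genes. Each level is the mean of the genotype where the gene was higher, so levels of different genes can come from different genotypes. All folds are log2 folds of rraga mutant over wild type, and the genotype with the higher mean is read from the sign. Each interval is a 95% interval from a standard error implied by the authors' fold and p under a normal test, and whether their p carries the spread between replicates is not known.

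In rraga mutant cells, 1 collagen gene passed the authors' threshold (FDR p-value under 0.05), and it fell: col10a1a, a type X chain. Of all genes with a p, 0.221% passed it, with 0.0893% lower and 0.132% higher in the mutant. The other 53 did not pass. With so low a share over all genes, a group with none past the threshold is not thereby shown to be unchanged. The abundant chains of type I, the main collagen of skin and bone, had log2 folds between -0.79 and 0.15. Chains of type IX, which coat type II fibrils in cartilage, included col9a3, the largest value on the higher side among collagens of level 1 or more. The median log2 fold of all 54 was 0.31, against 0.02 for all 25757 genes with a p, with 32 higher and 22 lower in the mutant (59.3% higher, against 51% of all genes). Among the 26 of level 1 or more the median was also 0.31, against 0.11 for the 15199 genes of such level, with 18 higher (69.2%, against 55.8%).

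**Figure D1:**
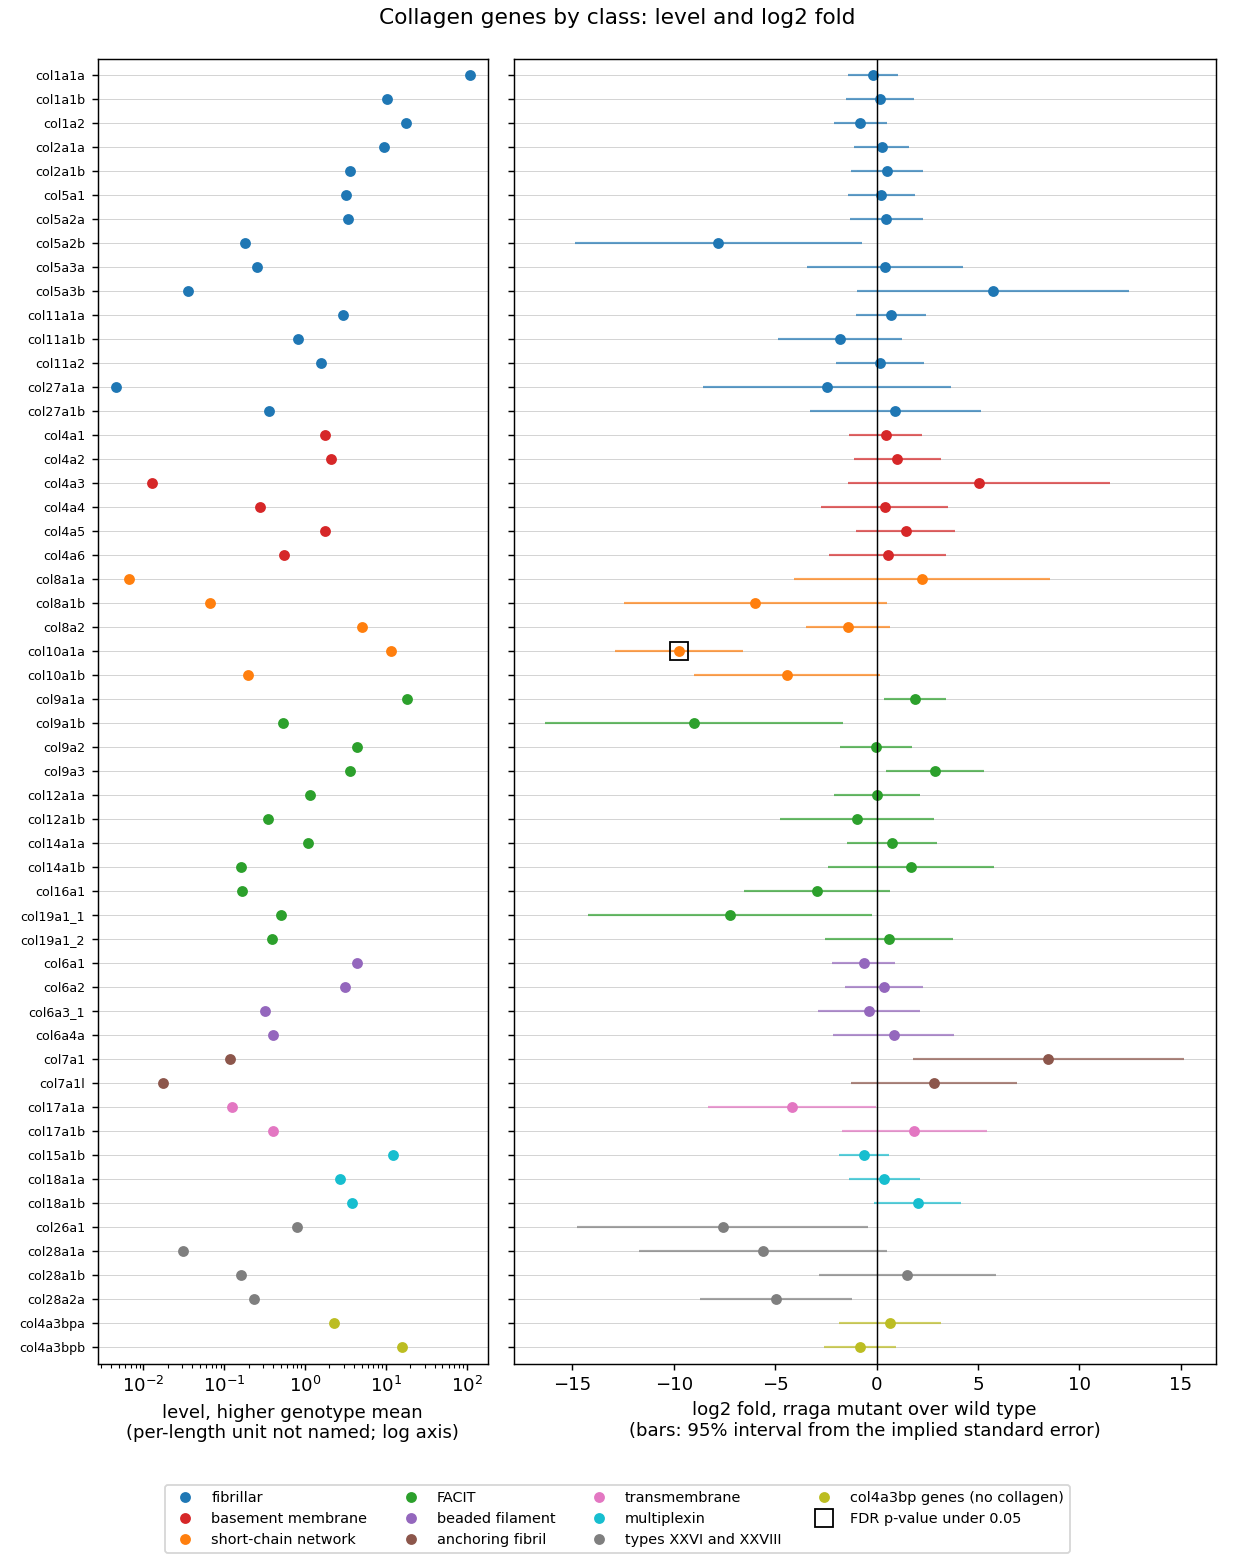
Level (left, log axis) and log2 fold of rraga mutant over wild type (right) of the 54 genes, ordered and coloured by class, with bars for the 95% interval from the implied standard error. The square marks col10a1a at -9.75, the gene past the authors' threshold, and intervals are widest for genes of level under 1.

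At an unadjusted p under 0.05 there were 10 of the 54 (18.5%, against 9.66% of all genes with a p). In the mutant, 3 were higher (5.56%, against 4.43% of all genes) and 7 were lower (13%, against 5.24%). Of these 10, the 7 other than col10a1a, col9a1a and col9a3 had levels under 1. Of the 28 genes of such level, 6 were lower at that p (21.4%, against 7.58% of all genes of level under 1). Among the 26 genes of level 1 or more, 2 were higher (7.69%, against 5.66% of all genes of such level) and 1 was lower (3.85%, against 3.61%), shares near the background. At level 10 or more there were 7 genes, with 1 higher, col9a1a (14.3%, against 5.94%), and 1 lower, col10a1a (14.3%, against 2.71%).

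The short-chain network collagens form hexagonal lattices. Type X is made in mammals by hypertrophic chondrocytes, the enlarged cells of growth cartilage that precede bone, and in zebrafish by chondrocytes and osteoblasts. col10a1a (ENSDARG00000054753, chromosome 17, 15534144 to 15538929, minus strand, GRCz11) had a level of 11.4, higher than 79.3% of all genes with a p, and by the sign of its fold this is the wild type mean. Its log2 fold was -9.75, an 861-fold lower value in the mutant, with an interval of -12.90 to -6.60 and an FDR p-value of 1.67e-05 per the authors' deposited table. The bound of that interval nearest to 0 is a 96.8-fold lower value. Its p of 1.35e-09 was number 2 in rank among all 25757 genes, and 2 genes of level 10 or more, itself included, had a log2 fold as low. The mutant mean is not given, so whether any read of col10a1a was found in mutant cells is not known, and the size of the fold rests on the authors' model.

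col10a1a overlaps no other gene of the table. The nearest gene lies 3.88 kb away and is marcksb, which encodes a membrane-bound kinase substrate and had a log2 fold of 0.74 (unadjusted p = 0.223) per the authors' deposited table. Of 12 genes within 150 kb, none passed the threshold. They include fabp7a, a fatty acid binding protein gene of radial glia, at -0.55 (p = 0.315), and fyna, which encodes a Src family kinase, at -0.14 (p = 0.795), per the authors' deposited table. The clone-named gene si:ch211-266g18.6 had -7.44 (p = 0.0404) at a level of only 0.222 per the authors' deposited table. rraga lies on chromosome 14, where no member of the 54 lies.

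The second type X gene, col10a1b (chromosome 20, 494770 to 498370), is scarce, with a level of 0.198. Its log2 fold was -4.42 (-9.02 to 0.17, unadjusted p = 0.0591) per the authors' deposited table, which did not pass. It lies inside nt5dc1, on the other strand, and nt5dc1 had a log2 fold of -1.33 (p = 0.286) at a level of 1.67 per the authors' deposited table. Whether reads were counted by strand is not given, so reads of the pair may not be separated. Among the type VIII chains, which in mammals form the lattice under the corneal endothelium, col8a2 (chromosome 19, 35909162 to 36009087) had a level of 5.04 and a log2 fold of -1.40 (-3.49 to 0.69, p = 0.189) per the authors' deposited table. col8a1b stood at -5.98 (p = 0.0708) with a level of 0.067 per the authors' deposited table. col8a1a, known in zebrafish from the notochord, stood at 2.22 (p = 0.490) with a level of 0.00655 per the authors' deposited table. All but col8a1a of these 5 genes had a lower value in the mutant, and 1 of the 5 passed.

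**Figure D2:**
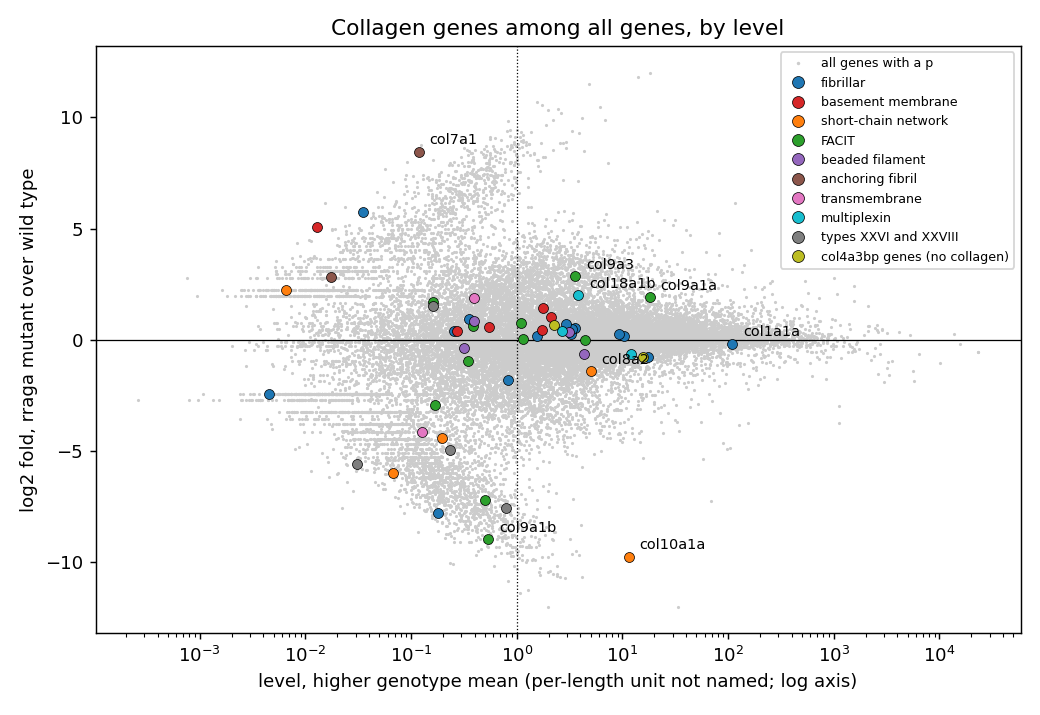
Level (log axis) against log2 fold of rraga mutant over wild type for all genes with a p (grey) and the 54 genes coloured by class, with a dotted line at level 1. col10a1a at level 11.4 and -9.75 has one of the lowest values among genes of level 10 or more. Of those 5792 genes, 46 had an absolute log2 fold over 4. col9a1b at 0.537 and -8.98 lies among many weak genes of similar fold.

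None of the 15 fibrillar collagens passed the threshold, and 10 of them had a higher and 5 a lower value in the mutant, with a median log2 fold of 0.24 and 1 lower at an unadjusted p under 0.05 (6.67%, against 5.24% of all genes with a p). Type I led the levels. col1a1a (chromosome 3, 23090499 to 23108910) was the most abundant collagen, at a level of 109.5, and its log2 fold was -0.17 (-1.40 to 1.05, unadjusted p = 0.781) per the authors' deposited table. Its copy col1a1b (chromosome 12, 3060966 to 3098750) had 0.15 (-1.52 to 1.83, p = 0.857) at a level of 10.3 per the authors' deposited table. The partner chain col1a2 (chromosome 19, 41396101 to 41415860) had -0.79 (-2.10 to 0.51, p = 0.234) at a level of 17.7 per the authors' deposited table. The 3 intervals overlap, and each spans 0.

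Type II, the collagen of cartilage and of the notochord sheath, was represented by col2a1a (chromosome 8, 21163335 to 21187388), with a log2 fold of 0.25 (-1.09 to 1.59, p = 0.712) at a level of 9.38 per the authors' deposited table. Its copy col2a1b had 0.53 (p = 0.554) at a level of 3.60 per the authors' deposited table. It holds elmo2 within its span on the same strand, so reads of these genes may not be separated. Type V chains regulate the width of type I fibrils, and col5a1 and col5a2a had 0.24 (p = 0.776) and 0.48 (p = 0.603) at levels of 3.24 and 3.36 per the authors' deposited table. The second copy col5a2b stood at -7.81 (-14.88 to -0.74, p = 0.0304) per the authors' deposited table, at a level of only 0.179. Among type XI chains, partners of type II in cartilage, col11a1a had 0.73 (p = 0.407), col11a2 0.17 (p = 0.874) and col11a1b -1.81 (p = 0.246) per the authors' deposited table. The scarce copies col5a3a and col5a3b had 0.41 (p = 0.833) and 5.74 (p = 0.0928) at levels of 0.254 and 0.0354, and col27a1b had 0.92 (p = 0.668) at 0.355, per the authors' deposited table. The 9 fibrillar genes of level 1 or more thus lay between -0.79 and 0.73, and the large values of this class belong to scarce genes.

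Of the FACIT class, which binds to the surface of fibrils, none of 11 passed, with 6 higher, 5 lower and a median of 0.01, and 2 were higher and 2 lower at an unadjusted p under 0.05 (18.2% each, against 4.43% and 5.24% of all genes with a p). Type IX chains, which decorate type II fibrils of cartilage, held 3 of the 10 collagens at an unadjusted p under 0.05, 2 higher and 1 lower. That is 3 of 4 genes of this type (75%, against 9.66% of all genes with a p). The type is singled out by these same p-values, so the share cannot show that it stands out. col9a1a (ENSDARG00000073699, chromosome 11, 11291319 to 11317662) was the collagen of second highest level, at 18.1, and had a log2 fold of 1.91 (0.38 to 3.45, unadjusted p = 0.0147, FDR p-value 0.583) per the authors' deposited table. By the sign, that level is the mutant mean. col9a3 (chromosome 23, 482721 to 511987) had 2.87 (0.46 to 5.28, p = 0.0194, FDR p-value 0.620) at a level of 3.59 per the authors' deposited table. The chain that completes their trimer, col9a2 (chromosome 19, 38834939 to 38880434), had -0.03 (-1.82 to 1.75, p = 0.971) at a level of 4.44 per the authors' deposited table. The scarce copy col9a1b, at a level of 0.537, had -8.98 (-16.32 to -1.65, p = 0.0164) per the authors' deposited table. Type IX chains therefore lay on both sides of 0, none passed, and the intervals of col9a1a, col9a2 and col9a3 overlap.

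The other FACIT genes were weaker. col12a1a, whose collagen lies in tendon and fascia and is made by fibroblasts in the injured zebrafish spinal cord, had 0.01 (p = 0.991) at a level of 1.15 per the authors' deposited table. col14a1a, known from the larval epidermis, had 0.77 (p = 0.494) at a level of 1.09 per the authors' deposited table. The copies col12a1b and col14a1b had -0.96 (p = 0.621) and 1.71 (p = 0.414) at levels of 0.345 and 0.161, and col16a1 had -2.94 (p = 0.111) at 0.167, per the authors' deposited table. col14a1b lies within the span of gpd1c, on the other strand. Type XIX is known from neurons of the mouse brain. It appears in the table as neighbouring gene models, of which col19a1_1 had -7.22 (p = 0.0428) and col19a1_2 0.61 (p = 0.703) per the authors' deposited table, at levels of 0.499 and 0.386. The RefSeq gene table used for names holds a single col19a1, so the models may be parts of 1 gene, and how reads were divided between them is uncertain.

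**Figure D3:**
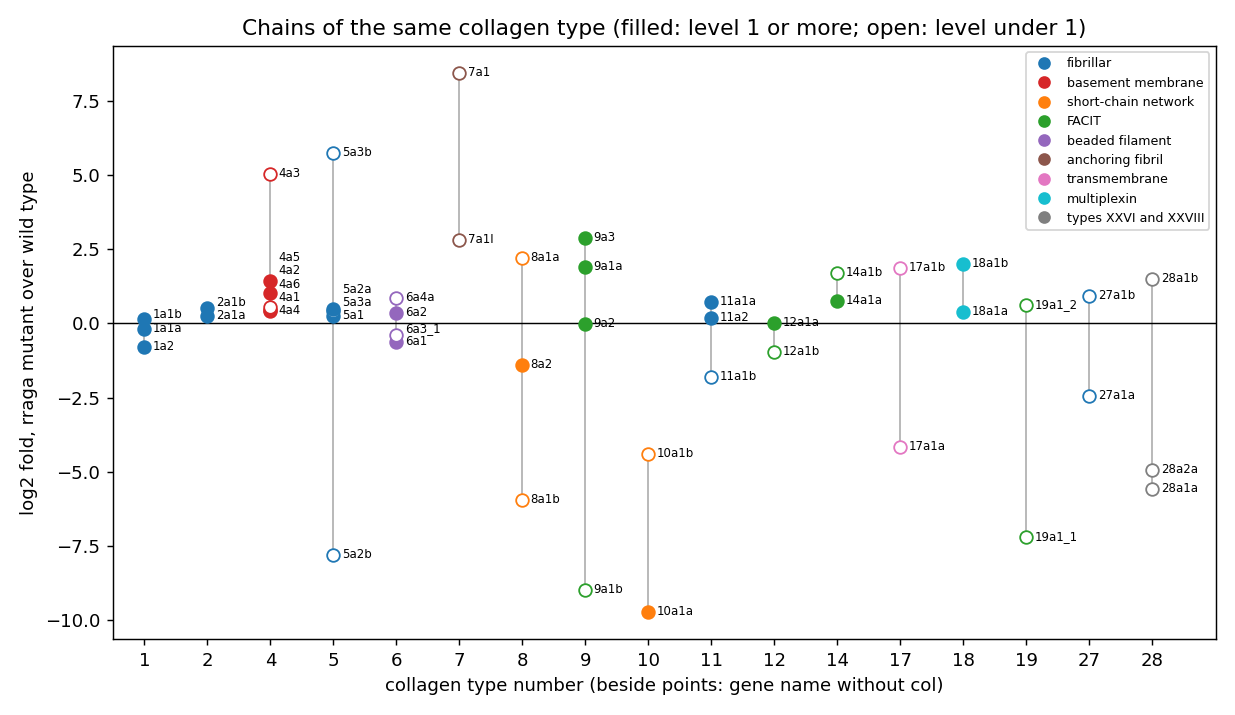
Log2 fold of rraga mutant over wild type for collagen types with more than 1 gene in the table, coloured by class, with filled points for level 1 or more and open points for level under 1. Chains of type I lie between -0.79 and 0.15, those of type IX between -8.98 and 2.87, and both type X genes lie below 0, at -9.75 and -4.42.

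All 6 basement membrane chains of type IV had a higher value in the mutant, with a median of 0.79 and none past the threshold or at an unadjusted p under 0.05. Type IV genes lie in pairs that run away from each other. col4a1 (chromosome 9, 8652642 to 8691828) and col4a2 (8751910 to 8904769), which make the common network, had log2 folds of 0.44 (-1.38 to 2.27, p = 0.633) and 1.02 (-1.11 to 3.16, p = 0.347) at levels of 1.74 and 2.09 per the authors' deposited table. col4a2 holds the gene model FP103004.1 within its span on the same strand, at a level of 3.37, so reads of these genes may not be separated. col4a5 (chromosome 7, 50828152 to 50919360), which in zebrafish is needed for the layering of retinal axons in the tectum, had 1.43 (-0.99 to 3.86, p = 0.248) at a level of 1.76 per the authors' deposited table. Its neighbour col4a6, 0.731 kb away, had 0.55 (p = 0.708) at a level of 0.547 per the authors' deposited table. col4a3 and col4a4, known from the kidney filter in mammals, were scarce at levels of 0.0129 and 0.273, with 5.05 (p = 0.124) and 0.41 (p = 0.797) per the authors' deposited table. They overlap by 538 bases on opposite strands, and col4a4 holds the gene model CT027718.1, at a level of 5.10, on the other strand. The intervals of all 6 span 0.

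Multiplexins are carried by basement membranes and release fragments such as endostatin. col15a1b (chromosome 2, 24281303 to 24357609) was among the abundant collagens, at a level of 12.1, with a log2 fold of -0.62 (-1.87 to 0.63, p = 0.330) per the authors' deposited table. The type XVIII copies col18a1b (chromosome 6, 18619145 to 18668330) and col18a1a had 2.02 (-0.12 to 4.16, p = 0.0639) and 0.37 (-1.38 to 2.12, p = 0.676) at levels of 3.84 and 2.66 per the authors' deposited table. Type VI chains form beaded filaments around cells such as muscle fibres and fibroblasts. col6a1 (chromosome 11, 33733724 to 33802916) and col6a2 (33658556 to 33697516), whose chains join in 1 trimer and which lie 36.2 kb apart with 1 gene between them, had -0.64 (p = 0.415) and 0.36 (p = 0.712) at levels of 4.35 and 3.13 per the authors' deposited table. The weaker type VI chains col6a3_1 and col6a4a had -0.39 (p = 0.761) and 0.85 (p = 0.575) at levels of 0.315 and 0.398 per the authors' deposited table. None of the 3 multiplexins and 4 type VI genes passed or had an unadjusted p under 0.05.

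The epidermal anchoring collagens were scarce. col7a1, the anchoring fibril chain, had a level of 0.118 and a log2 fold of 8.46 (1.78 to 15.14, p = 0.0130) per the authors' deposited table, the largest value on the higher side of all 54 genes. Its relative col7a1l had 2.83 (p = 0.173) at 0.0175 per the authors' deposited table, and 3 other gene models lie within its span. col17a1a and col17a1b, which encode the transmembrane collagen of hemidesmosomes, had -4.16 (p = 0.0484) and 1.87 (p = 0.305) at levels of 0.126 and 0.396 per the authors' deposited table. Of types XXVI and XXVIII, col26a1 had -7.57 (p = 0.0385) and col28a2a -4.94 (p = 0.00973) per the authors' deposited table, at levels of 0.796 and 0.236. The others of type XXVIII, col28a1a and col28a1b, had -5.58 (p = 0.0738) and 1.51 (p = 0.497) at levels of 0.0309 and 0.160 per the authors' deposited table. Type XXVIII is known in mice from peripheral nerves. None of these genes passed.

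Large folds among collagens went with low levels. Of the 28 genes of level under 1, 12 had an absolute log2 fold over 4 (42.9%, against 24.2% of all genes of such level), whereas 1 of the 26 at level 1 or more did (3.85%, against 2.68%), which is col10a1a. The median implied standard error was 2.13 under level 1, 0.98 at levels of 1 to 10 and 0.78 at level 10 or more. Of the 28, 11 had a log2 fold that at least 1 other gene of the table holds to 8 decimals. The share over all genes of level under 1 was similar, with 4392 of 10558. None of the other 26 shared a fold, and 49 of all 15199 genes of level 1 or more did. col27a1a shares its value of -2.43 with 335 other genes and col8a1a its value of 2.22 with 189 other genes. At level 1 or more, 19 of 26 had an absolute log2 fold under 1, a share similar to that of all genes of such level (10550 of 15199).

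The 2 ceramide transporter genes did not pass either. col4a3bpb had a log2 fold of -0.80 (-2.57 to 0.98, p = 0.379) at a level of 15.8, and col4a3bpa 0.65 (p = 0.609) at a level of 2.26, per the authors' deposited table. Without them the median of the 52 collagens was again 0.31. By the reference gene names, 3 genes of level above 0 that the table lists under clone names also carry a collagen symbol. Those of the transmembrane type XXIII, col23a1a on chromosome 14 and col23a1b on chromosome 21, had -2.38 (p = 0.184) and -2.54 (p = 0.194) at levels of 0.285 and 0.654 per the authors' deposited table. The third carries the symbol col7a1l and had 6.56 (p = 0.0656) at a level of 0.712 per the authors' deposited table. It lies within the span of the member col7a1l on the same strand, so these models may be parts of 1 gene. None of the 3 passed.

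A collagen chain is hydroxylated and folded in the endoplasmic reticulum, exported, trimmed and cross-linked outside the cell, and bound by receptors. Over 5 lists of these steps, 0 of the 105 genes with a p had an FDR p-value under 0.05, against 0.221% of all genes with a p. With so low a share, the count of 0 does not show that these steps were unchanged. At an unadjusted p under 0.05 there were 8 higher (7.62%, against 4.43% of all genes with a p) and 11 lower (10.5%, against 5.24%). The 22 genes for hydroxylation, glycosylation and folding had a median log2 fold of 0.09, with 12 higher and 10 lower in the mutant. The most abundant were ppib, which encodes cyclophilin B, at -0.27 (p = 0.645), and p4hb, which encodes the beta subunit of prolyl 4-hydroxylase, at 0.08 (p = 0.908), per the authors' deposited table. The 18 export genes had a median of -0.13, with 6 higher and 12 lower. sar1ab, a GTPase gene of the COPII coat, had -4.39 (p = 0.00921), while its paralog sar1b and tfg, the most abundant of the list, had -0.13 (p = 0.819) and 0.37 (p = 0.487), per the authors' deposited table.

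The 23 processing and cross-linking genes had a median of -0.15, with 11 higher and 12 lower. adamts14, whose product trims the amino end of procollagen, had -6.60 (p = 0.00574) at a level of 1.77 per the authors' deposited table. The procollagen enhancer gene pcolcea and the lysyl oxidase-like gene loxl2b, the most abundant, had 0.28 (p = 0.759) and 1.14 (p = 0.216) per the authors' deposited table. Of the 24 genes of degradation and its inhibitors, 13 were higher and 11 lower, and the median was 0.08. At an unadjusted p under 0.05, 4 were higher and 4 lower (16.7% each, against 4.43% and 5.24% of all genes with a p). mmp14b, a membrane-bound collagenase gene, had 3.48 (p = 0.00177, FDR p-value 0.284), and timp2b, an inhibitor that also takes part in activating the gelatinase MMP2, had 2.97 (p = 0.00543, FDR p-value 0.444), per the authors' deposited table. The most abundant of that list, the prolidase gene PEPD and the gelatinase gene mmp2, had 1.39 (p = 0.0137) and -0.57 (p = 0.335) per the authors' deposited table.

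The 18 receptor genes had a median of -0.31, with 8 higher and 10 lower, and 3 were lower at an unadjusted p under 0.05 (16.7%, against 5.24% of all genes with a p). Of these 3, 2 were of level under 1, where 7.58% of all genes were lower at that p. The integrin genes itgb1b.2 and itga1, the most abundant, had -1.45 (p = 0.0124) and 0.53 (p = 0.370) per the authors' deposited table. itgb1b.2 lies within the span of itgb1b.1 on the same strand, so reads of these genes may not be separated. itgb1b.1 had -0.38 (p = 0.684) at a level of 2.24 per the authors' deposited table. ddr1, a collagen receptor kinase gene, had -5.51 (p = 0.0112) at a level of only 0.193 per the authors' deposited table. For adgrg1_1, whose human counterpart binds type III collagen, and adgrg6, needed for myelination by Schwann cells, the values were 0.40 and 0.76 per the authors' deposited table, chosen after they were seen.

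**Figure D4:**
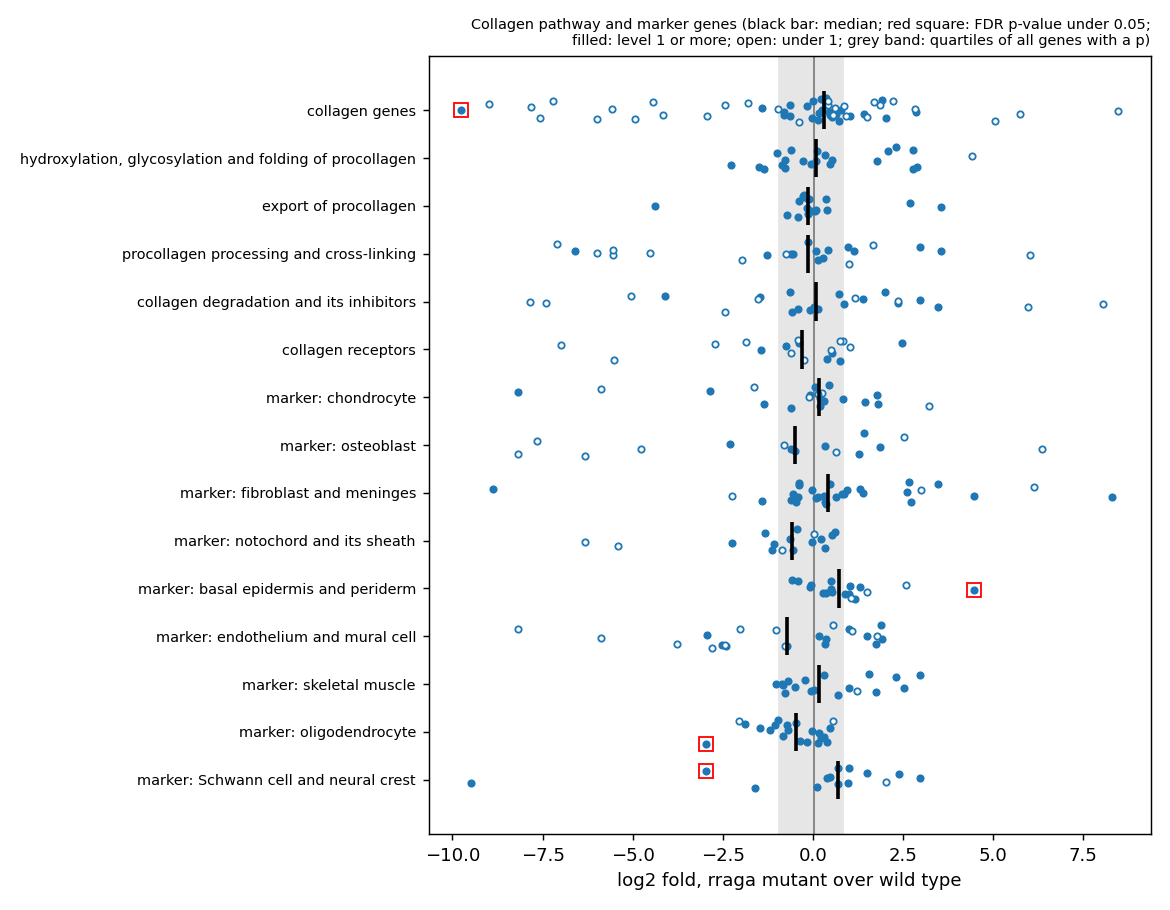
Log2 fold of rraga mutant over wild type for each gene of the collagen set, of 5 collagen pathway lists and of 9 marker lists, with filled points for level 1 or more, open points for lower levels, a black bar at the median and red squares at genes past the authors' threshold. The grey band runs from -0.94 to 0.84, the quartiles of all genes with a p, and the median of every list lies inside it. The band is the spread of single genes, so this does not show that no list is shifted.

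Markers of oligodendrocytes were abundant, with mbpa, plp1b, cldnk and mpz at levels of 5321, 3005, 1184 and 1110, and none of the 21 found was listed at 0. Their median log2 fold was -0.47, with 7 higher and 14 lower. Of the 21, 1 passed the threshold, which 0.221% of all genes with a p passed. At an unadjusted p under 0.05, 0 were higher (against 4.43% of all genes with a p) and 4 lower (19%, against 5.24%). mpz, a myelin adhesion protein gene, fell with -2.96 (FDR p-value 2.34e-04), and plp1b and the connexin gene cx47.1 had -1.89 (p = 5.99e-04) and -1.47 (p = 0.00314), per the authors' deposited table. cldnk itself had -0.82 (p = 0.127) per the authors' deposited table. On the higher side, mbpa, mbpb and sox10 had 0.23 (p = 0.670), 0.18 (p = 0.740) and 0.48 (p = 0.404) per the authors' deposited table. Markers of cells known for making collagen were also measured, and whether such cells were in the sort was not tested. In bulk RNA, fewer cells of a type and less RNA per cell cannot be told apart. The table gives no level per genotype, so summed marker levels per genotype are not given.

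Osteoblasts are a known source of col10a1a in zebrafish. Of 15 osteoblast markers, 7 were higher and 8 lower, and the median was -0.49. None passed, and at an unadjusted p under 0.05 there were 0 higher and 3 lower (20%, against 5.24% of all genes with a p). The 3 were of level under 1, where 7.58% of all genes were lower at that p. Among them, spp1 and panx3 had -8.19 (p = 0.0290) and -7.66 (p = 0.0364) per the authors' deposited table. sp7, the defining osteoblast factor, had a level of only 0.0315, and bglap, which encodes osteocalcin, had -2.30 (p = 0.336) at a level of 4.77, per the authors' deposited table. The most abundant, dlx5a and alpl, had 0.34 and -0.49 per the authors' deposited table. The part of these cells in the value of col10a1a was not tested.

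Chondrocyte markers stood beside the type II, IX and X genes. Of 20, 12 were higher and 8 lower, and the median was 0.17. None passed, 1 was higher and 1 lower at an unadjusted p under 0.05 (5% each, against 4.43% and 5.24% of all genes with a p), and matn3b and ihhb were listed at 0. The most abundant, hapln1a and lect1, had -0.06 (p = 0.906) and 0.32 (p = 0.602) per the authors' deposited table. The lower one, ucmaa, which encodes a cartilage matrix protein, had -8.19 (p = 0.0149, FDR p-value 0.586) at a level of 1.30 per the authors' deposited table. The higher one, acana, the aggrecan gene, had 3.23 (p = 0.0449, FDR p-value 0.685) at a level of 0.678 per the authors' deposited table. matn1 had 0.84 (p = 0.488) at a level of 11.8 and sox9a -0.62 (p = 0.548) at 7.29, per the authors' deposited table. The part of cartilage cells in the values of col9a1a, col9a3 and col10a1a was not tested.

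Among 30 markers of fibroblasts and meninges, 20 were higher and 10 lower, and the median was 0.42. None passed, and at an unadjusted p under 0.05 there were 4 higher (13.3%, against 4.43% of all genes with a p) and 1 lower (3.33%, against 5.24%). mfap4, a microfibril protein gene, and twist1b had 2.60 (p = 0.00190) and 4.48 (p = 0.00211), and fmodb, a fibromodulin gene, had -8.87 (p = 0.00847), per the authors' deposited table. The most abundant of the list was pmp22b, at 0.95 (p = 0.0852) per the authors' deposited table. It encodes a peripheral myelin protein, so its level cannot be assigned to fibroblasts. The type I genes, whose log2 folds lay between -0.79 and 0.15, are typical products of these cells. Their part in the collagen values was not tested.

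Of 16 notochord and sheath markers, 5 were higher and 11 lower, and the median was -0.59. None passed, 1 was lower at an unadjusted p under 0.05 (6.25%, against 5.24% of all genes with a p), and the defining factor tbxta, listed as ta, was at 0. mxra8b had -2.24 (p = 0.00997), and the most abundant, fkbp11 and agr2, had -0.54 and 0.63, per the authors' deposited table. Of 18 epidermal markers, 14 were higher and 4 lower, and the median was 0.72. itga6b, which encodes an integrin chain of hemidesmosomes, rose with 4.47 (FDR p-value 0.0334) per the authors' deposited table. The other 17 did not pass, and 0.221% of all genes with a p did. At an unadjusted p under 0.05, 3 of the 18 were higher (16.7%, against 4.43% of all genes with a p) and 0 lower (against 5.24%). Endothelial and mural markers had a median of -0.70 over 23 genes, with 11 higher and 12 lower. None passed, 2 were higher and 2 lower at an unadjusted p under 0.05 (8.70% each, against 4.43% and 5.24% of all genes with a p), and cldn5b had -2.93 (p = 0.00287) per the authors' deposited table. The most abundant of that list, rgs5b, had 1.90 (p = 0.0179) per the authors' deposited table.

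Of 18 skeletal muscle markers, 10 were higher and 8 lower, and the median was 0.18. None passed, 1 was higher at an unadjusted p under 0.05 (5.56%, against 4.43% of all genes with a p), and actc1b and pvalb2, the most abundant, had 0.32 and -0.86 per the authors' deposited table. Schwann cell and neural crest markers had a median of 0.70 over 14 genes, with 11 higher and 3 lower. mpz, which is on that list as well, was its 1 gene past the threshold, which 0.221% of all genes with a p passed. At an unadjusted p under 0.05, 2 were higher and 2 lower (14.3% each, against 4.43% and 5.24% of all genes with a p). The higher ones, gldn and ncam1a, had 1.49 (p = 0.0111) and 2.97 (p = 0.0139) at levels of 126 and 3.06 per the authors' deposited table. Besides mpz, the lower one was prx, the periaxin gene, with -9.50 (p = 0.00427) at a level of 1.03 per the authors' deposited table. egr2b and pmp22a, also of this list, had 0.97 (p = 0.0890) and 0.11 (p = 0.833) per the authors' deposited table. Their levels were 149 and 96.8. The part of Schwann cells in the sort and in the collagen values was not tested.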

How the data were processed

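RNA of sorted Cldnk:GFP cells from rraga mutant and wild type larvae was sequenced, with GRCz11 as the build, per the submitters' processing notes. For the aligner, the counter, the normalization and the test, nothing was given in the sources used here. The authors deposited, per the file headers, a maximum group mean (a normalized expression signal), a log2 fold change, its signed linear fold, and a p-value with FDR and Bonferroni forms. In 8569 rows of level 0 the fold and p-value columns hold a spreadsheet error. The table gives no counts, so depth is unknown. With 2 merged replicates per record and no values per replicate, no model could be refitted.

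A gene was called changed at the authors' FDR p-value under 0.05. The implied standard error is the size of the log2 fold over the standard normal quantile that its two-sided p corresponds to. The Benjamini-Hochberg function and this error were checked as code on data simulated under a normal test. That check recovers the error by construction, so it cannot show that a normal test fits the authors' p. Analyses used Python 3.11.15, pandas 2.3.3, NumPy 2.4.6 and SciPy 1.17.1.

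Members and lists were chosen with earlier results of these data known. Of 309 listed names (entries with a copy number counted apart), 287 were found and 280 had a p. Named collagen genes are those past the threshold, those at an unadjusted p under 0.05, the 10 of highest level, the 5 largest values in each direction at or above the median level (1.75), and their copies; other collagens were named to complete a class. From lists, up to 4 changed genes were named or, with none, the 2 of highest level, plus those at p under 0.01. Other list genes were named outside this rule, after their values were seen. They are acana, ucmaa, matn1, sox9a, sp7, bglap, spp1, panx3, mgp, ddr1, adgrg1_1, adgrg6, itgb1b.1, gldn, ncam1a, egr2b, pmp22a, mbpa, mbpb, cldnk and sox10. The values of 1 listed gene that this rule names are not reported here. Alternatives were other adjustments, level minima of 1 and 10, and other member rules.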

Additional observations from a re-analysis of the deposited data

How the results depend on the processing

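The count of changed collagen genes was 1 under every adjustment tried: the authors' FDR p-value under 0.01, their Bonferroni p-value, and adjustment over genes of level 1 or more, of level 10 or more or with a p. It was also 1 with the name pattern in any case and, chosen after the data were seen, with 3 genes that carry a collagen symbol under other names. The calls of the 22 genes named by the rule did not change in any of 88 alternatives, and the smallest adjusted p of one other than col10a1a was 0.279. For genes that had not passed, the alternatives with the stricter FDR p-value and the Bonferroni p-value could not change the call. Only adjustment over other sets of genes could have done so. Counts and medians depended on the level minimum, which leaves fewer genes. At level 1 or more, 1 collagen was lower at an unadjusted p under 0.05 in place of 7, and at level 10 or more 1 was higher in place of 3 and 1 lower. The median log2 fold of all members was -0.62 at level 10 or more (7 genes) in place of 0.31. By class, the median at level 1 or more was 0.77 for FACIT, 1.02 for basement membrane, -0.14 for beaded filament and -5.57 for the short-chain network. At level 10 or more it was 1.91 for FACIT, -0.17 for fibrillar collagens, -0.62 for multiplexins and -9.75 for the short-chain network. Of these, only the fibrillar value is a median over several genes (3). The others are the single genes col9a1a, col15a1b and col10a1a. With the lists at level 1 or more, an alternative chosen after seeing the data, the median had the other sign for processing and cross-linking (0.15), receptors (0.40), osteoblasts (0.34) and endothelium (0.35). No paired analysis was possible because the table holds no values per replicate, and leaving out a replicate could not be run for the same reason. Depth is unknown and limits the weak genes most.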
